A study of Homo sapiens with 4 samples.

Results

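The 42 genes described here carry out or control DNA replication in S phase: origin licensing and the MCM helicase, helicase activation, the polymerases, the sliding clamp and its loader, nucleotide supply, E2F and cyclin E, and chromatin assembly and checkpoint factors. They were a list given by name, and each was taken from the row of the deposited RNA-seq table whose gene names included it. All 42 were found among 56753 loci, and all 42 passed the minimum level for testing. For 36 the row named that gene alone. GINS2, PRIM1, POLD1, POLD3, FEN1 and CHAF1B shared a row with other genes, so that their value is 1 figure for the whole locus. The libraries came from cells of the line 786-O, which was established from a human renal carcinoma of the clear cell type and has no functional VHL. Cells had been stably transduced with PRDM16 lentivirus (2 libraries) or with a control vector (2 libraries), and the comparison asks how the transcriptome of this line differs when PRDM16, a zinc finger transcription regulator best known from brown fat, is overexpressed. Cells of both groups were grown adherent under standard conditions. The labels name neither the promoter that drives PRDM16 nor whether the transduced cells were a pool or a clone, and give no time after transduction. Whether the replicates are separate cultures is not said either, so that the p-values cover only how far these libraries differ, possibly for technical reasons.

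Replication origins are licensed in G1 when ORC, CDC6 and CDT1 load the MCM2 to MCM7 helicase onto DNA. In S phase CDC45 and GINS activate the helicase, and the polymerases copy both strands with the PCNA clamp, which RFC loads. Transcription of many of these genes is controlled by E2F factors, which are held by the retinoblastoma protein until cyclin-dependent kinases release them, so that their RNA is highest in cycling cells around the entry into S phase.

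Promoter sequences are shown because E2F binding sites are the shared regulatory feature by which these genes are known. RefSeq windows of 300 bases, from 250 before to 50 after the start site (GRCh38.p14), were matched by symbol for 37 of the 42 genes. MCM4, MCM5, GINS4, POLD3 and CCNE2 had no entry. The E2F pattern searched was TTTCCCGC, TTTCGCGC, TTTGCCGC or TTTGGCGC on either strand. It occurred in the windows of 21 of 37 genes (56.8%), beside 908 of all 27305 promoters (3.33%). The excerpts below run 5′ to 3′ on the gene's own strand with 20 bases on each side of the matches, which are in capitals. MCM2 and MCM6 are shown because a forward and a reverse match overlap in each capital run. CDC6, CDT1 and PCNA stand for licensing and the clamp, E2F1 for the factor itself, and CLSPN and POLE2 for genes at opposite ends of the spread between the control vector libraries described further on.
MCM2 (chr3:127598393-127598444, plus strand): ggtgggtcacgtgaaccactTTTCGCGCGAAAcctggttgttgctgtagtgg
MCM6 (chr2:135876502-135876615, minus strand): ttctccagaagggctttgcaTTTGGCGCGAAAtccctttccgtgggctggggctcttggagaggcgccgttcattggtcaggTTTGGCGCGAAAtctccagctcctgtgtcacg
CDC6 (chr17:40287866-40287913, plus strand): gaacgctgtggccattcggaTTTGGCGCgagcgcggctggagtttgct
CDT1 (chr16:88803734-88803781, plus strand): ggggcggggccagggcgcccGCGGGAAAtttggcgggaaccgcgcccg
PCNA (chr20:5126654-5126701, minus strand): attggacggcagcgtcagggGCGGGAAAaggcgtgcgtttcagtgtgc
E2F1 (chr20:33686378-33686438, minus strand): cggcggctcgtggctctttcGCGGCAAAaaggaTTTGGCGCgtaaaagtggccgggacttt
CLSPN (chr1:35769956-35770003, minus strand): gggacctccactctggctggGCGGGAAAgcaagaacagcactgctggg
POLE2 (chr14:49688192-49688239, minus strand): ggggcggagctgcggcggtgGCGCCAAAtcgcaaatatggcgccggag

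The 21 windows held 28 E2F matches, of which 20 lay within 60 bases of the start site. The first base of the match lay 7 bases after the start site in CDC6, 35 bases before it in CDT1 and 59 bases before it in PCNA. In E2F1 the matches began 33 and 20 bases before the start. The NF-Y box, CCAAT on either strand, was found in 21 of 37 windows (56.8%), beside 35.7% of all promoters, and 1 E2F match, in MCM7, overlapped it. The CHR element, TTTGAA on either strand, which is known from promoters of mitotic genes, was found in 1 of 37 windows (RRM1, 2.70%), beside 15.4% of all promoters. Of other genes of the pathway with a window, the E2F pattern was found in 4 of 25 replication fork genes (16%) and in 7 of 21 S phase and E2F pathway genes (33.3%). Among 25 G2 and mitosis genes, the E2F pattern was found in 2 (8%), the NF-Y box in 20 (80%) and the CHR element in 16 (64%). The median GC content was 66% over the 37 windows and 58.3% over all promoters, and its part in these shares was not tested. A match is a string of letters in a window, not a measured binding site.

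**Figure D1:**
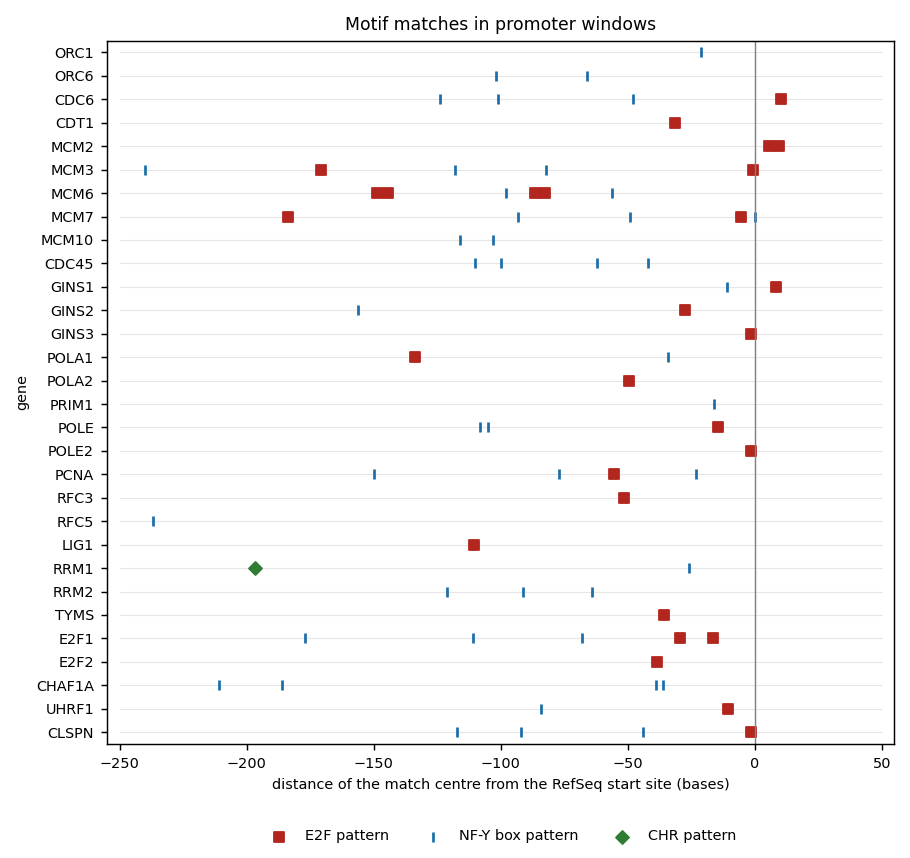
Position of each motif match in the promoter windows of the 30 genes with at least 1 match; the x axis gives the distance of the match centre from the RefSeq start site in bases. Red squares are E2F pattern matches, of which 20 of 28 lie within 60 bases of the start, blue bars are NF-Y box matches and the single green diamond is the CHR match of RRM1.

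PRDM16 itself, the introduced gene, had 1226 and 1146 FPKM in the PRDM16 libraries, against 0.0157 and 0.234 FPKM in the control vector libraries. FPKM are fragments scaled to transcript length in kilobases and to library size, and values are given in the order replicate 1, replicate 2 throughout. PRDM16 differed by 10.05 on the log2(FPKM + 1) scale (SE 0.13, limma adjusted p = 0.000317). All 8 markers of renal origin and carcinoma, among them PAX8 and VIM, were above the testing minimum. Of 10 markers of leukocytes, endothelium and fibroblasts, 9 had a row of their own, the highest of which was 1.26 FPKM, while CD68 was covered only by a row with 8 names. CD3E and DCN were listed at 0 in all 4 libraries. The libraries summed to between 556213 and 574003 FPKM, and 23138 to 24490 loci were above 0. From the step between low values, PRDM16 replicates 1 and 2 and control vector replicate 2 had 1.25, 1.17 and 1.39 times the depth of control vector replicate 1, while the absolute depth is unknown. Control vector replicate 2 stood apart from the other 3 libraries in the genes described here, so results are given with and without it.

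No replication gene passed the test between PRDM16 and control vector cells. In limma on log2(FPKM + 1), with Benjamini-Hochberg adjustment over the 13246 loci whose mean reached 1 FPKM, 0 of 42 were called at an adjusted p under 0.05, beside 3 of all loci (0.0226%). At an unadjusted p under 0.05 there were also 0 of 42, beside 811 loci (6.12%). The members' adjusted p ran between 0.689 and 0.879. The mean was higher with PRDM16 for 41 of 42 genes, beside 50.7% of all loci, and the median log2 change was 0.41, beside 0.004 over all loci. The lower of the PRDM16 libraries exceeded the higher control vector library in 8 genes (19.0%), a share near the 21.1% of all loci. These were CDT1, ORC6, MCM10, GINS2, GINS3, POLD3, RFC3 and CCNE1. FEN1 was the 1 gene with both PRDM16 libraries below both control vector libraries (background 20.3%). Because these are bulk libraries, a difference in the share of cells in S phase cannot be told apart from one in RNA per cell.

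The higher means came with 1 low library. Control vector replicate 2 was the lowest of the 4 libraries for 40 of 42 genes (background 38.7%), POLE2 and FEN1 being the exceptions. For 30 of 42 genes it lay more than 0.5 on the log2 scale below each of the other 3 libraries, a gap that 2.45% of all loci had. Its median difference from control vector replicate 1 was -0.84 on the log2 scale, beside -0.024 over all loci. Control vector replicate 1 held at least 1.5 times the FPKM of replicate 2 for 30 genes and at least 2 times for 15. Replicate 1 lay between the PRDM16 libraries for 25 genes (59.5%, beside 29.8% of all loci), above both for 9 and below both for 8. Summed over the 42 loci, the level was 2583 and 2823 FPKM in the PRDM16 libraries and 2773 and 1716 FPKM in the control vector libraries. Without control vector replicate 2, the mean was higher with PRDM16 for 17 of 42 genes and the median log2 change was -0.0083. Without control vector replicate 1, it was higher for 41 of 42 and the median was 0.84, with 38 of 42 at an unadjusted p under 0.05 beside 28.4% of all loci, and still 0 called (smallest adjusted p = 0.0993).

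**Figure D2:**
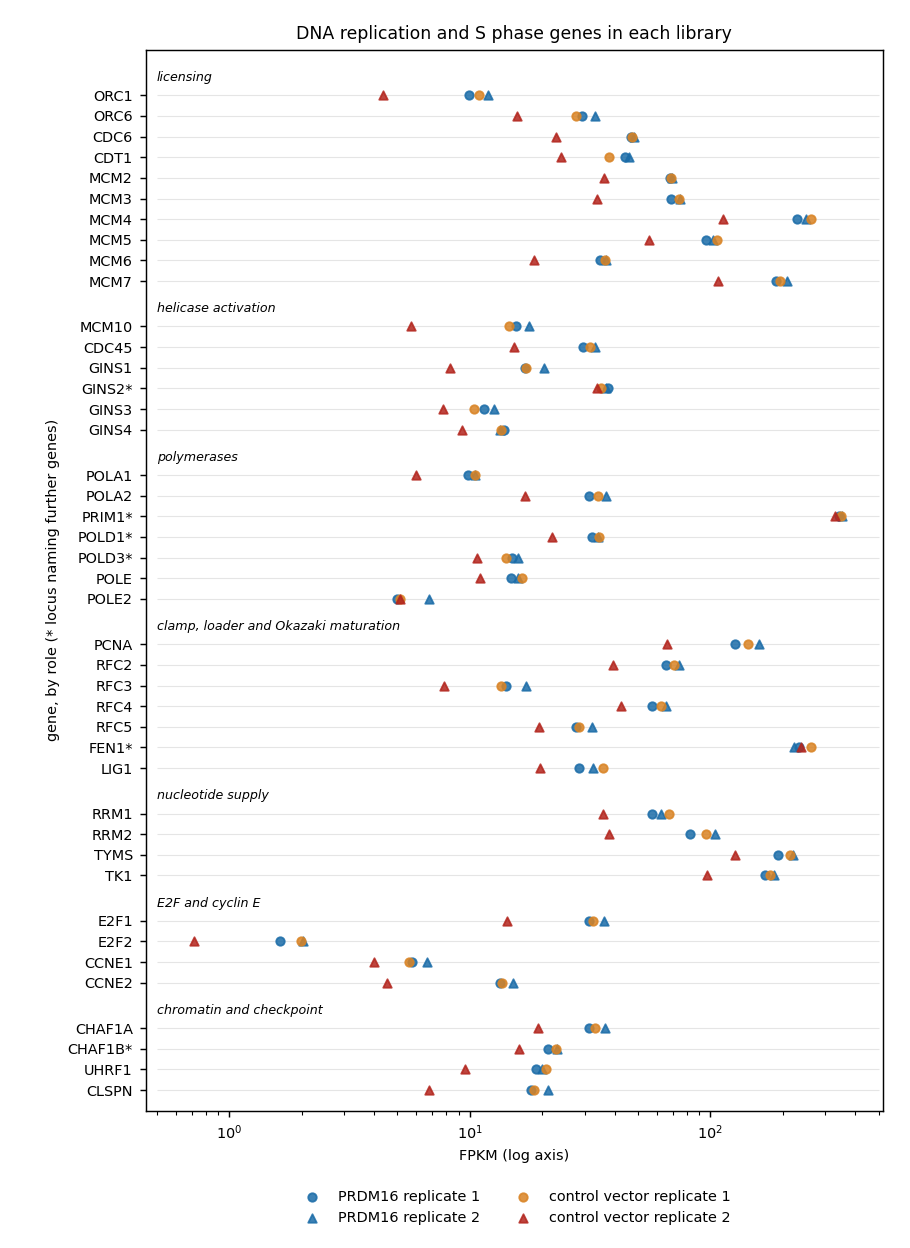
FPKM of each of the 42 genes in each library on a log axis, grouped by role, with blue for PRDM16, orange for control vector replicate 1 and red for control vector replicate 2 (circles replicate 1, triangles replicate 2); asterisks mark loci naming further genes. The red triangle is the leftmost point for 40 of 42 genes, while the other 3 libraries lie close together.

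In the licensing group, all 10 genes had a higher mean with PRDM16, with a median log2 change of 0.49. The groups did not overlap in 2 of 10, with PRDM16 above, a share near the 21.1% of all loci. CDT1, which loads the MCM ring and is held in check by geminin, had 44.3 and 45.8 FPKM in the PRDM16 libraries, against 37.7 and 24.1 FPKM in the control vector libraries. Both PRDM16 values were above both control vector values, and CDT1 (chromosome 16, 88803213 to 88809258, plus strand, GRCh38) had the smallest unadjusted p of the 42. Its means were 45.1 ± 1.02 FPKM in the PRDM16 libraries and 30.9 ± 9.68 FPKM in the control vector libraries (SD, n = 2 each), a log2 change of 0.56 (SE 0.22) with an unadjusted p of 0.0579 and an adjusted p of 0.689. Without control vector replicate 2, which leaves 1 library in that group, the log2 change of CDT1 was 0.25. ORC6, the smallest subunit of the origin recognition complex, had 29.3 and 33.2 FPKM in the PRDM16 libraries, against 27.5 and 15.7 FPKM in the control vector libraries. Its groups did not overlap either, and its log2 change was 0.56 (SE 0.27). ORC1, an ATPase subunit of the same complex, had 9.92 and 11.9 FPKM in the PRDM16 libraries, against 10.9 and 4.36 FPKM in the control vector libraries. Here the groups overlapped, since control vector replicate 1 lay between the PRDM16 libraries. CDC6, the ATPase that joins ORC to the MCM ring, had 46.7 and 48.01 FPKM with PRDM16, against 47.4 and 22.9 FPKM with the control vector. Its values were close in 3 libraries and low in control vector replicate 2 alone.

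The 6 subunits of the MCM2 to MCM7 helicase ring were low together in the same library. MCM4, the most abundant of the 36 genes with a row of their own, with a mean of 213 FPKM over the 4 libraries, had 229.6 and 249 FPKM in the PRDM16 libraries, against 261 and 113 FPKM in the control vector libraries. MCM7 had 187 and 209 FPKM with PRDM16, against 195 and 107 FPKM with the control vector. MCM5 had 95.5 and 103 FPKM with PRDM16, against 107 and 55.5 FPKM with the control vector. In each of these subunits control vector replicate 1 reached the level of the PRDM16 libraries or exceeded it, and replicate 2 lay far below. MCM3 had 68.4 and 75.04 FPKM with PRDM16, against 74.3 and 33.7 FPKM with the control vector. MCM2 (chromosome 3, 127598223 to 127622436, plus strand, GRCh38) had 67.7 and 69.2 FPKM with PRDM16, against 68.9 and 36.00 FPKM with the control vector. MCM6, the least abundant subunit, had 34.9 and 36.9 FPKM with PRDM16, against 36.5 and 18.5 FPKM with the control vector. The log2 changes of the 6 subunits lay between 0.36 and 0.51, none with an adjusted p under 0.05. Without control vector replicate 2, 5 of the 6 had the opposite sign: the log2 change was then -0.13 for MCM4, -0.11 for MCM5 and -0.050 for MCM3, while MCM7 alone kept a positive value.

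The proportions among the subunits were close to constant although the level was not. The 6 subunits summed to 683 and 742 FPKM in the PRDM16 libraries and to 743 and 364 FPKM in the control vector libraries. MCM4 made up 33.6% and 33.6% in the PRDM16 libraries and 35.2% and 31.1% in the control vector libraries. MCM7 made up 27.3% and 28.1% in the PRDM16 libraries and 26.2% and 29.4% in the control vector libraries. MCM5, the subunit that closes the ring's gate with MCM2, made up 13.99% and 13.8% in the PRDM16 libraries and 14.4% and 15.2% in the control vector libraries. FPKM are scaled for transcript length, so that these shares compare RNA levels between subunits, not protein.

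**Figure D3:**
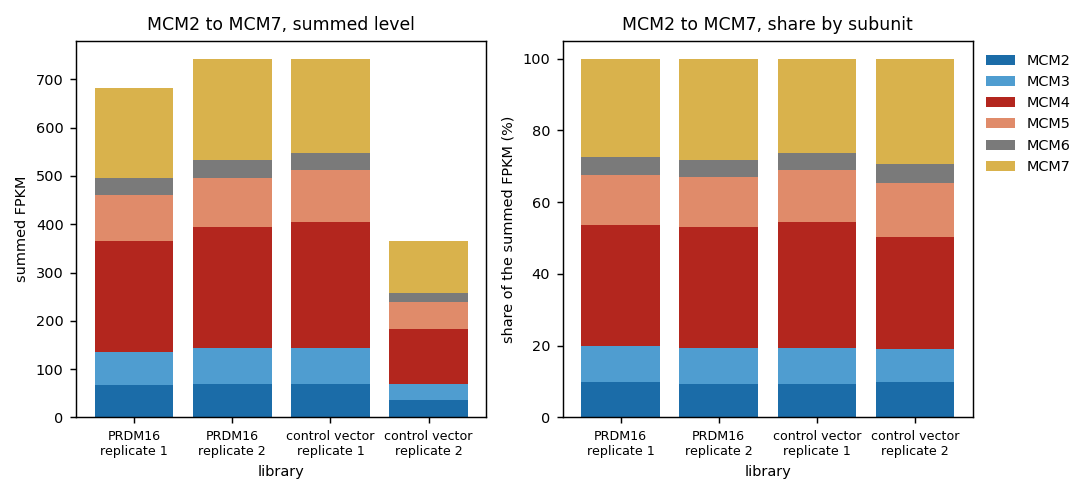
Summed FPKM of MCM2 to MCM7 (left) and the share of each subunit in that sum in percent (right), 1 stacked bar per library with the PRDM16 libraries on the left of each panel. The bar of control vector replicate 2 reaches 364 FPKM against 683 to 743 FPKM in the other 3 libraries, while MCM4 makes up 31.1% to 35.2% in all 4.

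Among the 6 genes that turn the loaded ring into an active helicase, all 6 had a higher mean with PRDM16, with a median log2 change of 0.44. Both PRDM16 libraries were above both control vector libraries in 3 of them, beside 21.1% of all loci. These were MCM10, GINS3 and the shared locus of GINS2. MCM10, which is needed to start unwinding, had 15.5 and 17.7 FPKM in the PRDM16 libraries, against 14.6 and 5.72 FPKM in the control vector libraries. Its groups did not overlap and its log2 change, 0.78 (SE 0.41), was the highest of the 42 (unadjusted p = 0.124, adjusted p = 0.689). The ratio of its means was 1.63, and control vector replicate 2 held 0.392 times the FPKM of replicate 1. CDC45, the helicase cofactor that travels with the ring, had 29.6 and 33.1 FPKM in the PRDM16 libraries, against 31.5 and 15.3 FPKM in the control vector libraries. GINS1, a subunit of the tetrameric GINS complex, had 16.9 and 20.3 FPKM with PRDM16, against 17.1 and 8.28 FPKM with the control vector. In both, control vector replicate 1 lay between the PRDM16 libraries. GINS3 had 11.5 and 12.6 FPKM with PRDM16, against 10.4 and 7.73 FPKM with the control vector, with no overlap between the groups. GINS4 had 13.9 and 13.3 FPKM with PRDM16, against 13.5 and 9.31 FPKM with the control vector. GINS2 could be read only through a locus that also names C16orf74, which had 37.6 and 36.98 FPKM with PRDM16, against 35.1 and 33.7 FPKM with the control vector. That locus was nearly level over the 4 libraries, and which of its genes sets the level was not tested.

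The 7 polymerase genes all had a higher mean with PRDM16, with a median log2 change of 0.25. The groups did not overlap in 1 of 7, the shared locus of POLD3, beside 21.1% of all loci with PRDM16 above. POLA2, the accessory subunit of the priming polymerase alpha, had 31.2 and 36.8 FPKM in the PRDM16 libraries, against 34.1 and 17.01 FPKM in the control vector libraries. Its log2 change was 0.47 (SE 0.34). POLA1, the catalytic subunit, had 9.86 and 10.5 FPKM with PRDM16, against 10.6 and 6.01 FPKM with the control vector. In both genes the control vector libraries differed from each other more than the PRDM16 libraries did. POLE, the catalytic subunit of the leading strand polymerase epsilon, had 14.9 and 15.9 FPKM in the PRDM16 libraries, against 16.5 and 11.05 FPKM in the control vector libraries. POLE2, its small subunit, had 4.97 and 6.77 FPKM in the PRDM16 libraries, against 5.11 and 5.12 FPKM in the control vector libraries. POLE2 was an exception to the pattern, since its control vector libraries were level and only PRDM16 replicate 2 was higher. Its log2 change was 0.16 (SE 0.16). POLD1, the catalytic subunit of the lagging strand polymerase delta, was read with SPIB and a further transcript in 1 locus at 32.1 and 34.1 FPKM with PRDM16, against 34.6 and 21.9 FPKM with the control vector. POLD3, read in a locus with 1 other name, had 14.96 and 15.8 FPKM with PRDM16, against 14.1 and 10.7 FPKM with the control vector, and its groups did not overlap. PRIM1, the primase subunit that makes the RNA primer, shared its locus with the abundant NACA, which encodes a ribosome-associated chaperone subunit. That locus had 342 and 353 FPKM in the PRDM16 libraries, against 349 and 328 FPKM in the control vector libraries, so that the level of PRIM1 itself is not known.

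Of the 7 genes of the clamp, its loader and Okazaki fragment maturation, 6 had a higher mean with PRDM16, with a median log2 change of 0.33. PCNA, the sliding clamp (chromosome 20, 5114953 to 5126626, minus strand, GRCh38), had 127 and 160.0 FPKM in the PRDM16 libraries, against 143 and 66.3 FPKM in the control vector libraries. Its log2 change was 0.54 (SE 0.39), and its means were 143 ± 23.6 FPKM in the PRDM16 libraries and 105 ± 54.6 FPKM in the control vector libraries (SD, n = 2 each). The groups overlapped, and PRDM16 replicate 1 lay below control vector replicate 1. RFC2, a small subunit of the loader, had 65.4 and 74.4 FPKM with PRDM16, against 70.6 and 39.4 FPKM with the control vector. RFC3, another small subunit, had 14.1 and 17.1 FPKM with PRDM16, against 13.5 and 7.82 FPKM with the control vector. RFC3 did not overlap between groups, while RFC2 did. RFC4 had 57.4 and 65.3 FPKM with PRDM16, against 62.5 and 42.5 FPKM with the control vector. RFC5 had 27.7 and 32.2 FPKM with PRDM16, against 28.5 and 19.3 FPKM with the control vector. Both overlapped between groups and were lowest in control vector replicate 2. Summed, RFC2 to RFC5 came to 165 and 189 FPKM in the PRDM16 libraries and to 175 and 109 FPKM in the control vector libraries. LIG1, the ligase that seals Okazaki fragments, had 28.5 and 32.5 FPKM with PRDM16, against 35.9 and 19.5 FPKM with the control vector. Control vector replicate 1 was the highest of its 4 libraries, and without control vector replicate 2 its log2 change was -0.23. FEN1, the nuclease that trims the fragments' 5′ flaps, was read with the fatty acid desaturase FADS2 in 1 locus at 234 and 222 FPKM in the PRDM16 libraries, against 262 and 238 FPKM in the control vector libraries. It was the only member with a lower mean with PRDM16 (log2 change -0.13 (SE 0.093), adjusted p = 0.690), and the value may belong to either gene.

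All 4 genes of nucleotide supply had a higher mean with PRDM16, with a median log2 change of 0.37. In none did the groups separate, beside 21.1% of all loci with PRDM16 above and 20.3% with PRDM16 below. RRM2, the S phase subunit of ribonucleotide reductase, had 82.1 and 105 FPKM in the PRDM16 libraries, against 96.2 and 37.9 FPKM in the control vector libraries. RRM1, its large subunit, had 57.4 and 62.1 FPKM with PRDM16, against 67.4 and 35.6 FPKM with the control vector. RRM2 made up 58.8% and 62.8% in the PRDM16 libraries and 58.8% and 51.5% in the control vector libraries of the summed RRM1 and RRM2 level, so that control vector replicate 2 was the library with the smallest share of the S phase subunit. TYMS, thymidylate synthase, had 192 and 219.9 FPKM in the PRDM16 libraries, against 215 and 127 FPKM in the control vector libraries. TK1, the thymidine kinase of S phase, had 169 and 184 FPKM with PRDM16, against 177 and 96.7 FPKM with the control vector. In all 4 genes control vector replicate 1 lay within or above the range of the PRDM16 libraries. RRM2 had the highest log2 change of the group, 0.61 (SE 0.46), with an adjusted p of 0.693.

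E2F and cyclin E genes also had a higher mean with PRDM16 in 4 of 4, with a median log2 change of 0.47. E2F1, the activator E2F that switches on this programme, had 31.2 and 36.2 FPKM in the PRDM16 libraries, against 32.6 and 14.2 FPKM in the control vector libraries. Its log2 change was 0.62 (SE 0.39), and control vector replicate 1 lay between the PRDM16 libraries. E2F2, a further activator, was low in all libraries at 1.63 and 2.03 FPKM with PRDM16, against 1.98 and 0.712 FPKM with the control vector. CCNE2, a cyclin E, which activates CDK2, had 13.3 and 15.2 FPKM in the PRDM16 libraries, against 13.6 and 4.53 FPKM in the control vector libraries. It showed the lowest ratio of control vector replicate 2 to replicate 1 of all 42 genes, 0.332, and its log2 change was 0.76 (SE 0.47). CCNE1, the other cyclin E, had 5.75 and 6.66 FPKM in the PRDM16 libraries, against 5.61 and 3.996 FPKM in the control vector libraries. Its groups did not overlap, although its log2 change was smaller, 0.32 (SE 0.18). CCNE2 made up 69.9% and 69.5% in the PRDM16 libraries and 70.8% and 53.1% in the control vector libraries of the summed cyclin E level. E2F1 made up 94.3% to 95.2% of the sum of E2F1 and E2F2 over the 4 libraries.

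Chromatin assembly and checkpoint genes completed the list, with a higher mean in 4 of 4 and a median log2 change of 0.41. The groups overlapped in all 4, while 21.1% of all loci had PRDM16 above and 20.3% had it below. CLSPN, the adaptor that passes the checkpoint signal to CHK1 at stalled forks, had 17.9 and 21.2 FPKM in the PRDM16 libraries, against 18.5 and 6.76 FPKM in the control vector libraries. Its log2 change of 0.74 (SE 0.45) was the next highest after MCM10 and CCNE2, and control vector replicate 2 held 0.366 times the FPKM of replicate 1. UHRF1, which reads hemimethylated DNA behind the fork, had 18.8 and 19.99 FPKM with PRDM16, against 20.7 and 9.58 FPKM with the control vector. CHAF1A, the large subunit of the CAF-1 histone chaperone, had 31.2 and 36.3 FPKM with PRDM16, against 33.2 and 19.2 FPKM with the control vector. CHAF1B, its middle subunit, was read with MORC3 and a further transcript in 1 locus at 21.1 and 23.1 FPKM with PRDM16, against 22.8 and 16.1 FPKM with the control vector. In these genes too, control vector replicate 1 lay within or just above the PRDM16 range and replicate 2 was low.

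**Figure D4:**
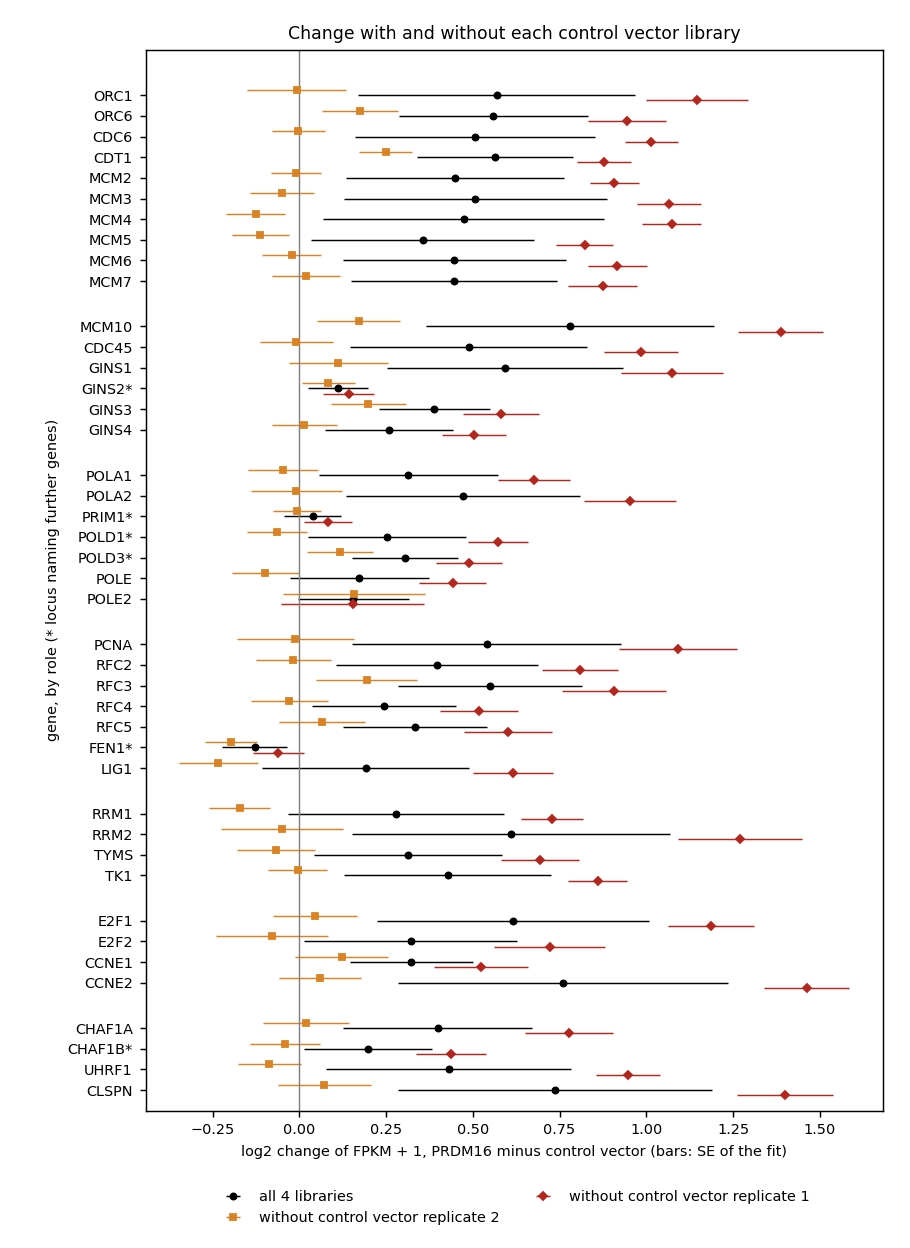
log2 change of FPKM + 1, PRDM16 minus control vector, for each gene with all 4 libraries (black), without control vector replicate 2 (orange) and without control vector replicate 1 (red); bars are the SE of the fit. The orange points have a median of -0.0083 with 17 of 42 above 0, and the red points a median of 0.84 with 41 of 42 above 0.

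The spread between libraries had an order of its own among the 42 genes. The lowest ratios of control vector replicate 2 to replicate 1 were those of CCNE2 (0.332), E2F2 (0.360), CLSPN (0.366), MCM10 (0.392), RRM2 (0.394) and ORC1 (0.399). The highest were those of POLE2 (1.003) and of the shared loci of GINS2 (0.959), PRIM1 (0.940) and FEN1 (0.909). Setting aside the 6 shared loci, the other 36 genes summed to 1901 and 2137 FPKM in the PRDM16 libraries and to 2056 and 1068 FPKM in the control vector libraries, and 36 of 36 had a higher mean with PRDM16. The shared loci summed to 682 and 685 FPKM in the PRDM16 libraries and to 718 and 648 FPKM in the control vector libraries. Among the genes with a row of their own, the 20 with an E2F match in the promoter window had a median log2 difference between the control vector libraries of -0.89 (range -1.33 to 0.003), and the 12 without a match had -0.85 (range -1.32 to -0.40). The ranges overlapped almost entirely, and the difference between them was not tested. Only exact strings were counted, so that windows without a match, such as those of MCM10 and CDC45, can hold close variants of the pattern. The PRDM16 libraries also differed, in a smaller way: PRDM16 replicate 2 was above replicate 1 for 39 of 42 genes, with a median log2 difference of 0.16, beside 6400 of all 13246 loci.

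Most further genes of the same pathway were also lower in control vector replicate 2 than in replicate 1. These were 29 of 32 other replication fork genes and 22 of 27 other S phase and E2F pathway genes. Over all tested loci the count was 7099 of 13246. Of 32 other replication fork genes tested, 0 passed the test (0 at an unadjusted p under 0.05) and 26 had a higher mean with PRDM16, with a median log2 change of 0.18. POLE3, a histone-fold subunit of polymerase epsilon, had 55.2 and 64.9 FPKM with PRDM16, against 50.8 and 37.2 FPKM with the control vector. RPA2, which coats single-stranded DNA, had 41.9 and 44.6 FPKM with PRDM16, against 38.6 and 32.02 FPKM with the control vector. Groups did not overlap in 12 of the 32, all with PRDM16 higher (background 21.1%), and control vector replicate 2 was the lowest library in 26. Of 27 other S phase and E2F pathway genes, 0 passed the test (1 at an unadjusted p under 0.05, RRM2B) and 22 had a higher mean with PRDM16, with a median log2 change of 0.30. SLBP, which binds histone mRNA in S phase, had 109 and 122 FPKM with PRDM16, against 105 and 65.9 FPKM with the control vector. RRM2B, the p53-induced small subunit of ribonucleotide reductase, had 14.7 and 14.2 FPKM with PRDM16, against 16.8 and 19.2 FPKM with the control vector, the PRDM16 values being below both control vector values. Its log2 change was -0.29 (SE 0.11), with an unadjusted p of 0.0450 and an adjusted p of 0.689. Among 30 G2 and mitosis genes, 0 passed (0 unadjusted) and 28 had a higher mean with PRDM16, with a median log2 change of 0.185. CDC20, the activator of the anaphase-promoting complex, had 157 and 160.3 FPKM with PRDM16, against 145 and 119 FPKM with the control vector. Control vector replicate 2 was the lowest library for 28 of the 30 genes, beside 40 of the 42 replication genes. The median difference of the list between the control vector libraries was -0.41 on the log2 scale, beside -0.84 for the 42 replication genes.

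Cell cycle inhibitors and stress genes are given beside these. Of 8 tested D cyclins and CDK inhibitors 0 passed the test, while 2, CDKN1A and CDKN1B, had an unadjusted p under 0.05 (background 6.12%). CDKN1A, which encodes the CDK inhibitor p21, had 65.8 and 61.2 FPKM in the PRDM16 libraries, against 79.8 and 98.1 FPKM in the control vector libraries. Its log2 change was -0.47 (SE 0.13), with an unadjusted p of 0.0179 and an adjusted p of 0.689. CDKN1B, which encodes p27, had 20.7 and 20.7 FPKM with PRDM16, against 25.03 and 24.3 FPKM with the control vector. Both inhibitors were lower in each PRDM16 library than in each control vector library (background 20.3%). The other tested inhibitors, CDKN2C and CDKN2D, overlapped between groups and had a higher mean with PRDM16, with log2 changes of 0.16 and 0.063. CDKN2C had 26.5 and 31.8 FPKM with PRDM16, against 36.2 and 18.5 FPKM with the control vector. CDKN2D had 9.49 and 9.23 FPKM with PRDM16, against 9.44 and 8.43 FPKM with the control vector. Measured from control vector replicate 1 alone, the PRDM16 mean differed by -0.31 on the log2 scale for CDKN2C and -0.011 for CDKN2D. The same difference was -0.33 for CDKN1A and -0.26 for CDKN1B. A list of 15 tested stress genes was chosen with the odd library in view, so its counts cannot serve as support. The list was highest in control vector replicate 2 for 15 of 15 genes, beside 4495 of all 13246 loci. It summed to 1566 and 1124 FPKM in the PRDM16 libraries and to 1218 and 2473 FPKM in the control vector libraries. The ER chaperone HSPA5 had 376 and 276 FPKM with PRDM16, against 270.2 and 650.4 FPKM with the control vector. DDIT3, which encodes the stress transcription factor CHOP, had 77.3 and 37.99 FPKM with PRDM16, against 43.8 and 153 FPKM with the control vector. PRDM16 replicate 2 was below replicate 1 for 15 of 15, where it was above replicate 1 for 39 of 42 replication genes. The part of the stress genes' difference in the replication result was not tested. For 12 commonly used reference genes the log2 difference between the control vector libraries had a median of -0.14 and ran from -0.46 for HPRT1 to 0.65 for RPLP0.

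**Figure D5:**
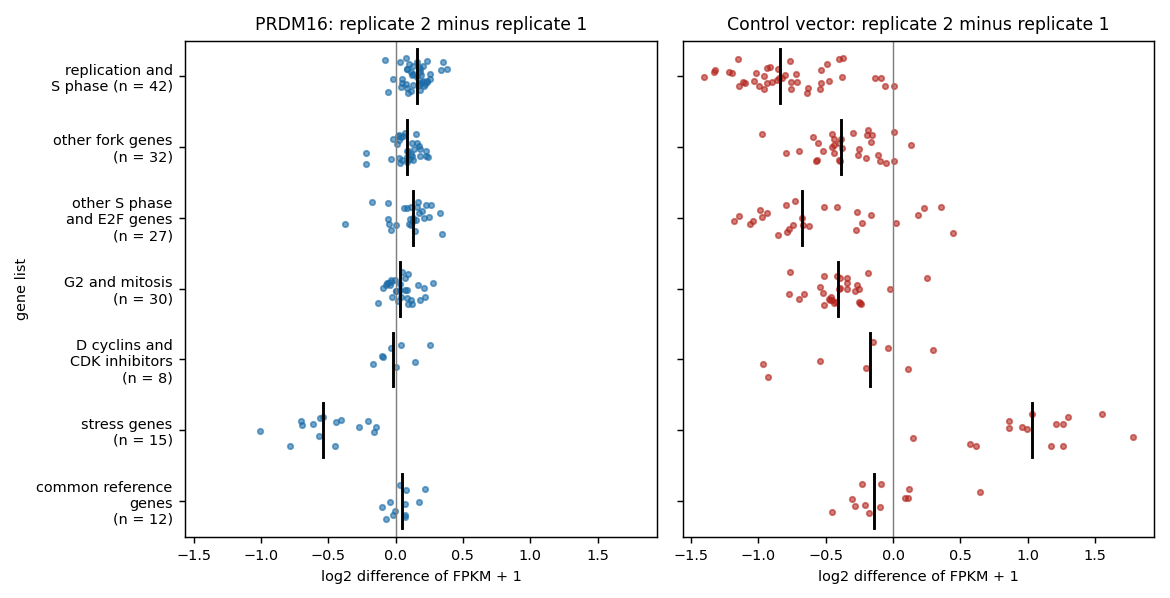
log2 difference of FPKM + 1 between replicates (replicate 2 minus replicate 1) for each gene, within PRDM16 (left) and within the control vector (right), by gene list; dots are genes and black bars medians. In the control vector panel the 42 replication genes have a median of -0.84 and the stress genes 1.03. The stress genes were chosen with control vector replicate 2 in view. In the PRDM16 panel the replication genes have a median of 0.16.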

How the data were processed

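RNA-seq of 2 PRDM16 and 2 control vector libraries was used, grouped by the labelled vector. The submitters' processing notes name the build hg38 and the tools TopHat2 2.1.0, Cufflinks 2.2.1, Cuffdiff and Trim Galore. Which annotation, filters, scaling and strand setting were used is not given in the sources used here. As deposited by the authors, the values were taken as FPKM, a unit that the header does not name. They are not whole numbers, so no count test was run. Values of 1 locus with several gene names cannot be divided among them, and reads of near-identical copies may have been split by the authors' counting.

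The 13246 loci whose mean reached 1 FPKM were fitted in R 4.3.3 with limma 3.58.1 on log2(FPKM + 1) with a variance trend, two-sided. The Benjamini-Hochberg adjusted p had to be under 0.05. Changes are PRDM16 minus control vector on that scale, which understates low genes such as E2F2. With 2 libraries against 2 an exact permutation test cannot pass the threshold. The fit was tested on simulated data with independent noise at each locus and shifts added to some loci. These data held no library that was low across a set of genes, so the test does not cover that case. Relative depth is the most frequent ratio between libraries of values under 0.3 FPKM. Coordinates are from GENCODE release 29 (GRCh38) and promoters from RefSeq. Tables and plots used Python 3.11.15, numpy 2.4.6, pandas 2.3.3 and matplotlib 3.10.9.

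The members, gene lists and tests were chosen with earlier results of these data known. All members could be named, and from each other list at most 4 genes with the smallest p. HSPA5, DDIT3, HPRT1, RPLP0, CDKN2C and CDKN2D were chosen after their values were seen. Alternatives covered the pseudocount (0.1, 0.5), the filter, the scaling, the variance model, the replicate number as a block and leaving out each library.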

Additional observations from a re-analysis of the deposited data

How the results depend on the processing

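Over 10 alternatives that kept all 4 libraries, every member tested kept the direction of its log2 change and its side of the threshold; E2F2 was not tested at a mean FPKM of at least 5. The loci called over the whole table, 3 in the fit reported, were 5 with a pseudocount of 0.1, 1 with no filter, 6 with no variance trend, 5 with robust variances and 5 with the replicate block, none of them a member. Replicate numbers were not taken as pairs: the correlation between same-numbered libraries' deviations from their group means was -0.058 over 13246 loci. With the replicate block the members' median log2 change was 0.41.

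Leaving out each library in turn leaves a group with 1 library, whose spread is assumed to be that of the other group. It gave 17 to 37 loci called, 17 to 41 members with a higher mean with PRDM16 and medians of -0.0083 to 0.84. Members with every PRDM16 library above every control vector library were 32 without PRDM16 replicate 1 (beside 34.4% of all loci) and 9 without PRDM16 replicate 2 (beside 30.1%). They were 40 without control vector replicate 1 (beside 43.9%) and 8 without replicate 2 of that group (beside 33.98%). Without control vector replicate 2, 24 members had the opposite sign. Their log2 changes over the 4 left-out libraries, lowest there and highest without control vector replicate 1, were ORC1 -0.0081 to 1.15, CDC6 -0.0026 to 1.01, MCM2 -0.010 to 0.91, MCM3 -0.050 to 1.07, MCM4 -0.13 to 1.07, MCM5 -0.11 to 0.82, MCM6 -0.023 to 0.92, CDC45 -0.0087 to 0.98, POLA1 -0.047 to 0.68, POLA2 -0.0085 to 0.95, PRIM1 -0.0067 to 0.083, POLD1 -0.064 to 0.57, POLE -0.098 to 0.44, PCNA -0.011 to 1.09, RFC2 -0.017 to 0.81, RFC4 -0.029 to 0.52, LIG1 -0.23 to 0.61, RRM1 -0.17 to 0.73, RRM2 -0.050 to 1.27, TYMS -0.067 to 0.69, TK1 -0.0046 to 0.86, E2F2 -0.079 to 0.72, CHAF1B -0.041 to 0.44, UHRF1 -0.087 to 0.95. POLE2 ran between -0.035 without PRDM16 replicate 2 and 0.35 without PRDM16 replicate 1. Count tools were not run, since the values are not counts. The absolute depth is unknown, so no counting error can be given for low genes such as E2F2.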

Other observations

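Of 5 E2F genes outside the 42, 3 (E2F3, E2F4 and E2F8) were lowest in control vector replicate 2, as E2F1 and E2F2 were, and 2 were highest there. E2F7 had 21.3 and 16.2 FPKM in the PRDM16 libraries, against 18.5 and 23.96 FPKM in the control vector libraries. E2F5 had 12.7 and 11.1 FPKM in the PRDM16 libraries, against 10.5 and 14.6 FPKM in the control vector libraries. In both, control vector replicate 2 was the highest library. E2F7 had a log2 change of -0.17 (SE 0.19) and an adjusted p of 0.756 in limma. CDC25A, the phosphatase that activates CDK2 at the entry into S phase, was lowest in control vector replicate 2, with 8.91 and 11.6 FPKM in the PRDM16 libraries, against 8.71 and 3.72 FPKM in the control vector libraries. CCND3, a D-type cyclin, had 41.8 and 46.2 FPKM in the PRDM16 libraries, against 42.9 and 21.4 FPKM in the control vector libraries, while CCND1 had 376 and 335 FPKM in the PRDM16 libraries, against 324 and 350.3 FPKM in the control vector libraries. Control vector replicate 2 was the lowest library for CCND3 and not for CCND1. These E2F genes were chosen after their values were seen.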
